A study of Mus musculus with 3 samples.

Results

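Estrogen receptor α (ERα) binding sites were examined around 10 genes of epidermal growth factor (EGF) receptor signalling in the mouse mammary gland. A peak was assigned to a gene when its midpoint lay within 100 kb of any annotated transcription start site (TSS) of that gene, and the stretch covered by overlapping peaks of both replicates was taken as a shared region. In this way, 23 of the 6250 shared regions in the series were found near the 10 genes. Together with peaks that were present in 1 replicate only, there were 34 sites of 10258 in all. They held 31 of the 9607 peaks of replicate 1 and 26 of the 6819 peaks of replicate 2. The tissue was the #4 mammary gland of wild-type BALB/c females whose ovaries had been removed at 6 weeks. After 10 days of rest they received 100 ng of 17β-estradiol, and the glands were taken 2 h later. ERα ChIP-seq was done in 2 replicates, each a pool of glands from several mice, with a common input library. All ChIP samples had received estradiol, so a change in binding with treatment cannot be read from them. Whole glands were used, so that more cells with a bound site and more binding in each cell cannot be told apart, and peak lists hold no marker by which the labelled tissue could be checked.

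The EGF family ligands are made as membrane-bound precursors that are released by cleavage and bind ERBB receptor tyrosine kinases on the same or on neighbouring cells. Amphiregulin, encoded by Areg, is made by ERα-positive luminal cells and is required for ductal elongation at puberty, for which it acts through the EGF receptor of other cells. Errfi1 encodes a cytoplasmic protein, also known as MIG6, that binds the kinase domain of the EGF receptor and restrains it as a feedback inhibitor. ERα itself binds the estrogen response element (ERE), an inverted repeat in which the arms GGTCA and TGACC are separated by 3 bases, and it can also reach DNA through other transcription factors.

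The sequences below are the ERE-like stretches that carry the comparison of the loci. They were read from the plus strand of NCBIM37, the assembly of mm9, and the capitals mark 13 bases that matched the ERE with at most 1 mismatch in a 400 bp window around the midpoint of a shared region. Of the 23 windows, 9 held such a stretch. The first line is the 70 bp amplicon of the primer pair used in the study for ChIP-qPCR at Areg, which matched 1 place in the assembly and lay inside the shared region.

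Areg, 97.4 kb downstream, 1 mismatch, chr5:91665992-91666061: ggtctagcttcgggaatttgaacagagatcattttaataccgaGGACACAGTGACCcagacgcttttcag
Tgfa, intron, 1 mismatch, chr6:86163397-86163437: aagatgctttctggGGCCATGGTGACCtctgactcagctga
Nrg1, intron, 1 mismatch, chr8:32940810-32940850: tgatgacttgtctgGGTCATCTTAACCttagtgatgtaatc
Egfr, intron, 1 mismatch, chr11:16670002-16670042: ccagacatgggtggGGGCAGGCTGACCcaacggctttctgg
Egfr, intron, 1 mismatch, chr11:16695244-16695284: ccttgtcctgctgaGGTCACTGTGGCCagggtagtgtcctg
Egfr, intron, 1 mismatch, chr11:16714459-16714499: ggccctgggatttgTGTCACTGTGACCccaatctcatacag
Erbb2, in an intron of Stard3, 1 mismatch, chr11:98223329-98223369: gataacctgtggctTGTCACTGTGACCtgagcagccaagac
Erbb2, in an intron of Stard3, no mismatch, chr11:98228151-98228191: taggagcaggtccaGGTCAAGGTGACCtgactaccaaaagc
Errfi1, upstream of the promoter, 1 mismatch, chr4:150225760-150225800: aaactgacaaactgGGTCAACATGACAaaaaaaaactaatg

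For comparison, the 13 bases nearest to an ERE within the 400 bp window are shown in the same way for the 3 Errfi1 regions with the highest scores. They differed from the consensus at 3, 3 and 2 positions, in the order given. Outside its window, the first of these regions held a stretch with 2 mismatches. Among all shared regions the fewest was 3 in 27.7% and 2 in 36.3%, beside 55.2% and 14.4% of windows 5 kb to each side.

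Errfi1, 34.7 kb downstream, chr4:150264063-150264103: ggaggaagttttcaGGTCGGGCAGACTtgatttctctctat
Errfi1, 69.0 kb upstream, chr4:150158895-150158935: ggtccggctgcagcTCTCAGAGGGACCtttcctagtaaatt
Errfi1, 53.9 kb upstream, chr4:150173994-150174034: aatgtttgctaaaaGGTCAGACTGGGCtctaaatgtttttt

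Binding was uneven across the 10 genes. Shared regions were found near 6 of them, namely Errfi1 with 11, Egfr with 4, Tgfa and Erbb2 with 3 each, and Areg and Nrg1 with 1 each. Ereg, Btc, Hbegf and Erbb3 had 0. By role, 3 of the 6 ligand genes, 2 of the 3 receptor genes and the feedback inhibitor had at least 1 shared region. The 6 of 10 genes (60.0%, exact Clopper-Pearson 95% interval 26.2% to 87.8%) compare with 38.1% of the 22380 protein-coding genes in the annotation, a value inside that interval, so a share above the background was not detectable with 10 genes. These intervals cover counting error only, and the replicates give no estimate of the spread between animals. They also take genes and regions as independent, although the stretches searched for Areg and Ereg overlap and 11 regions lie around Errfi1 alone.

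**Figure D1:**
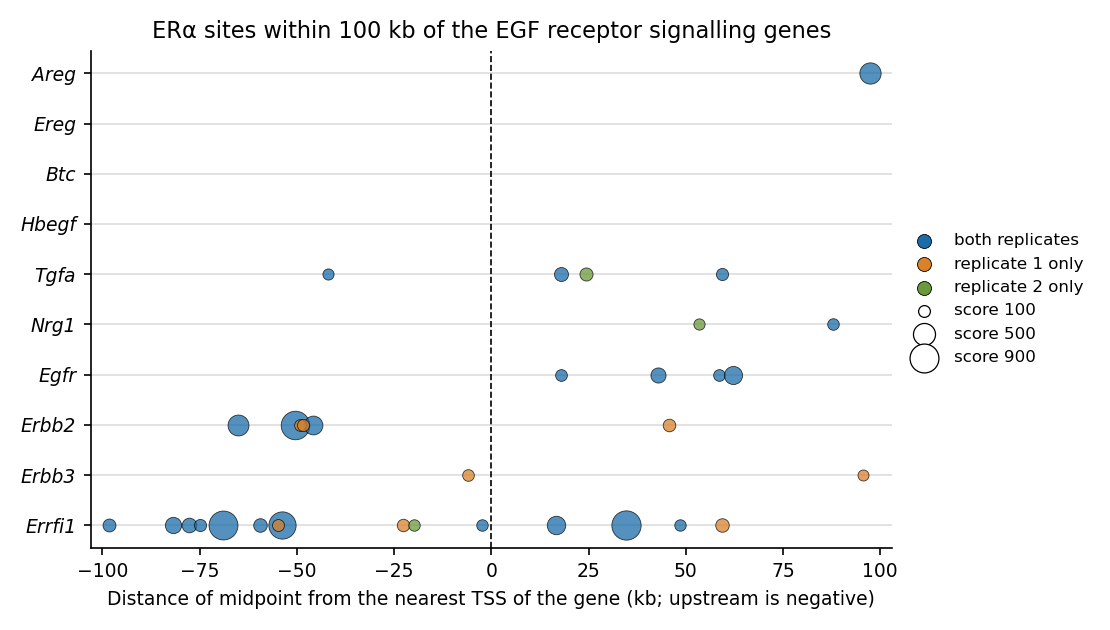
Each point is an ERα site, placed by the distance of its midpoint from the nearest TSS of the gene in kb, with 1 row for each of the 10 genes. Colours give the replicates in which the site was present, and the area of a point grows with its score, for shared regions the lower of both scores. Errfi1 has 11 shared regions on both sides of its TSS, whereas Ereg, Btc and Hbegf have 0.

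Of the 34 sites, 23 (67.6%, 95% interval 49.5% to 82.6%) were shared by both replicates, 8 were present in replicate 1 only and 3 in replicate 2 only. Over the whole series 60.9% of sites were shared, which lies within that interval. Scores come from the peak caller MACS, which multiplies the negative log10 of each p-value by 10, and no peak scored below 80. Scores of the 23 shared regions had a median of 249 in replicate 1 (quartiles 164 and 594) and 204 in replicate 2 (106 and 396), beside medians of 246 and 178 over all shared regions. The 8 sites of replicate 1 only had scores from 80.1 to 151, and the 3 of replicate 2 only had scores from 85.2 to 137. Sites without a partner near these genes were therefore all below the median score of 162 or 161 of all peaks in the respective list.

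Of the 23 shared regions, 22 scored higher in replicate 1 than in replicate 2, beside 80.2% of all shared regions. Dividing the first score by the second gave a median of 1.36 (quartiles 1.22 and 1.75) near these genes and 1.31 over all shared regions. The exception was the intronic Tgfa region 17.9 kb downstream of the TSS, with 166 in replicate 1 and 205 in replicate 2. Scores rise with depth as well as with enrichment, so they rank sites within a list and do not measure occupancy.

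**Figure D2:**
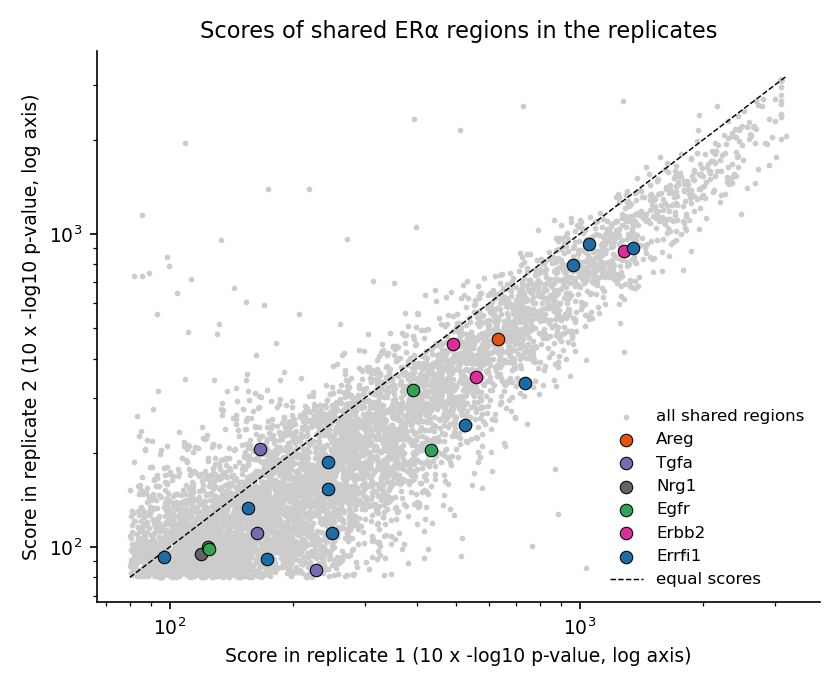
Scores of shared regions in replicate 1 (x axis) and replicate 2 (y axis), both on log axes, with all 6250 shared regions in grey and the 23 near the signalling genes in colour. All coloured points but 1 lie below the dashed line of equal scores, and the highest are those near Errfi1 and Erbb2.

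None of the 23 regions lay between 1 kb upstream and 400 bp downstream of a TSS of its gene, and 1 lay within 10 kb. The median distance was 58.7 kb (range 2.3 kb to 98.2 kb), with 12 regions upstream and 11 downstream. These distances are to the assigned gene within the limit of 100 kb, so they follow in part from that rule. Some regions lay close to TSSs of other genes, as at 1012 bp from Ppp1r1b and 1720 bp from Park7. By position, 10 regions lay in introns of protein-coding genes, 7 of them in an intron of one of the 10 genes, and 13 were intergenic. In the series as a whole 42.8% of shared regions were intronic. The TSS of one of the 10 genes was the nearest of any annotated gene for 6 regions, which belonged to Tgfa, Errfi1 and Nrg1. These 3 of 10 genes compare with 11.8% of protein-coding genes. When only TSSs of protein-coding genes were considered, 14 regions and 4 genes met this criterion, with Areg added, beside 14.1% of protein-coding genes. With 10 genes, neither share was tested against its background.

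The ligands differed in the number and strength of their sites. Areg (ENSMUSG00000029378, chromosome 5, plus strand, 91568641 to 91577458) had 1 shared region, from 91665800 to 91666299, which scored 631 and 463 in replicates 1 and 2 and ranked 1103 and 1081 in the respective lists. This intergenic region was close to the limit of 100 kb, at 97.4 kb downstream of the TSS. The nearest annotated TSS was that of a U6 small nuclear RNA gene, 19020 bp away, and Areg was the nearest protein-coding gene. Besides the ERE-like stretch in the amplicon, the window held the orphan receptor SF1 consensus CAAGGTCA, on the minus strand, and the forkhead (FOXA1) consensus TGTTTAC.

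Ereg, which encodes epiregulin, and Btc, which encodes betacellulin, lie on the same stretch of chromosome 5 as Areg. The Ereg TSS is 65.0 kb before that of Areg, and the Btc TSS is 263.3 kb past it on the opposite strand. From 100 kb before the Ereg TSS to 100 kb past the Btc TSS there were 2 shared regions in 528 kb, the one assigned to Areg and another from 91686845 to 91687444 with scores of 232 and 179. Both lay between Areg and Btc. The first was 162.4 kb from the Ereg TSS and 165.9 kb from the Btc TSS, and the second was 144.8 kb from the Btc TSS and 118.5 kb from that of Areg. Hbegf, which encodes heparin-binding EGF-like growth factor (chromosome 18), had its nearest shared region 115.8 kb downstream of the TSS, with scores of 302 and 263. No peak of either replicate lay within 100 kb of Ereg, Btc or Hbegf.

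Tgfa encodes transforming growth factor α, a ligand of the EGF receptor (ENSMUSG00000029999, chromosome 6, plus strand, 86145420 to 86225151). No other gene had a TSS closer to any of its 3 shared regions. The upstream region, from 86103150 to 86103603, scored 227 and 84.3, the largest ratio between replicates (2.69) of the 23 regions. Of those in introns, the region from 86163129 to 86163594 has been given above, and the region from 86204634 to 86205071, 59.4 kb downstream of the TSS, had scores of 163 and 111. No Tgfa region reached a score of 200 in both replicates. Another intronic peak, 24.5 kb downstream, was present in replicate 2 only with a score of 137.

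Both intronic Tgfa regions held an AP1 consensus, TGACTCA or TGAGTCA, which is bound by FOS and JUN proteins. In the first of them it lay close behind the ERE-like stretch printed above without adjoining it, as TGACTCA at 86163426 to 86163432. The second had 2 mismatches to the ERE and also held the SF1 consensus and a pair of FOXA1 matches. These were the 2 AP1 matches among the 23 windows, beside 16.7% of all shared regions and 7.10% of windows 5 kb to each side. With 23 windows, a difference from these shares was not tested.

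Nrg1 encodes neuregulin 1, a ligand of ERBB3 and ERBB4 rather than of the EGF receptor (ENSMUSG00000062991, chromosome 8, minus strand, 32928500 to 33119581). It had 1 shared region, which lay in an intron from 32940723 to 32941053, 87.8 kb downstream of the nearest annotated TSS. Its scores of 119 and 94.9 were among the lower ones of the 23 regions. It was no longer within 100 kb when the most 5′ TSS alone was used. A second intronic peak at 53.4 kb was present in replicate 2 only with a score of 85.2.

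Among the receptors, Egfr and Erbb2 had shared regions and Erbb3 did not. Egfr encodes the EGF receptor (ENSMUSG00000020122, chromosome 11, plus strand, 16652206 to 16818161), and all 4 of its shared regions lay in its introns between 17.8 kb and 62.2 kb downstream of the nearest TSS of the gene. The region spanning 16694888 to 16695532 scored 435 in replicate 1 and 204 in replicate 2. The one spanning 16714145 to 16714788 scored 392 and 318. Both were above the other pair, from 16669791 to 16670291 with 124 and 100 and from 16710753 to 16711056 with 125 and 98.6. No Egfr peak was present in 1 replicate only. Although the regions were intronic, TSSs of Gm17664 and E230015J15Rik were nearer to them than those of Egfr.

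In Egfr, 3 of the 4 windows held an ERE-like stretch with 1 mismatch, and the fourth had 2 mismatches. None held the AP1, SF1, PAX2 or FOXA1 consensus, where PAX2 stands for GTCACG. The stretch in the region at 62.2 kb, TGTCACTGTGACC, was identical, spacer included, to that in a region near Erbb2. These 13 bases were found in 19 of the 6243 shared regions on assembled chromosomes (0.304%).

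Erbb2 encodes the receptor HER2, which has no known ligand of its own and pairs with the other ERBB receptors (ENSMUSG00000062312, chromosome 11, plus strand, 98273784 to 98299030). All 3 of its shared regions were upstream and closer to other genes. The region from 98222714 to 98223783, in an intron of Stard3, scored 1284 in replicate 1 (rank 328) and 879 in replicate 2 (rank 403). It lay 50.5 kb upstream of Erbb2 and 3491 bp downstream of a Stard3 TSS. A second region in Stard3, from 98227528 to 98228474 at 45.8 kb upstream of Erbb2, had scores of 557 and 348 and held the only ERE without mismatch among the 23 windows. Over all shared regions 6.60% held one. The third, from 98208373 to 98209039, scored 490 and 444 and lay 1012 bp upstream of a TSS of Ppp1r1b.

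The TSSs of 9 other protein-coding genes lay within 100 kb of Erbb2. The 3 regions were also the 3 within 100 kb of Grb7, which encodes an adaptor that binds activated receptors, so the peak lists do not assign them to Erbb2 in particular. Replicate 1 had 3 further peaks near Erbb2, with scores of 99.0, 109 and 123, that replicate 2 lacked.

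Erbb3 encodes the receptor of neuregulins whose own kinase is weak (ENSMUSG00000018166, chromosome 10, minus strand, 128004579 to 128026708). It had 2 peaks in replicate 1 and 0 in replicate 2. The peak 6.0 kb upstream of the TSS scored 97.8, and the one 95.6 kb downstream, beside a TSS of Myl6, scored 80.1, just above the lowest score of 80.02 in that list. The nearest shared region was 190.8 kb upstream. Binding near Erbb3 was thus not detected in both replicates at the threshold used for the lists.

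Errfi1 (ENSMUSG00000028967, chromosome 4, plus strand, 150228028 to 150243001) accounted for 11 of the 23 shared regions. In the annotation, 14 protein-coding genes had more, and 0.0938% of protein-coding genes had at least as many. The median over protein-coding genes was 0 and the highest number was 19. Per 100 kb of sequence within reach of a TSS, Errfi1 had 5.47 shared regions, a density that 10 of the 22380 genes reached, Errfi1 included. Egfr had 1.13, Erbb2 1.40, Tgfa 1.50, Areg 0.50 and Nrg1 0.34 on this scale, which allows for genes with several TSSs.

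**Figure D3:**
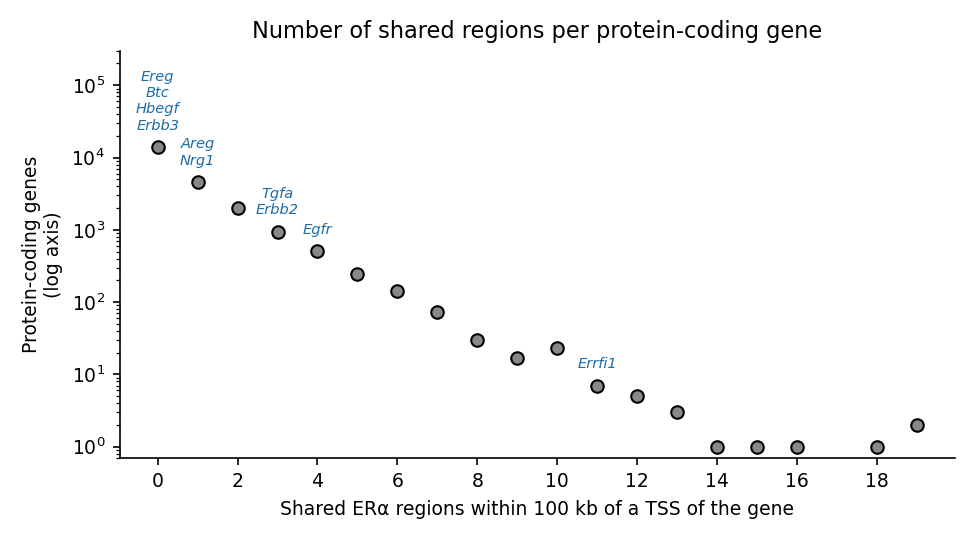
Number of protein-coding genes (y axis, log scale) with a given number of shared ERα regions within 100 kb of a TSS (x axis), with the signalling genes written above the point of their number. Errfi1 stands at 11, in the sparse upper end of the distribution, and the other genes at 0 to 4.

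The Errfi1 regions fell into a dense upstream group and a looser set around the gene. Of the 11 regions, 7 lay between 98.2 kb and 53.9 kb upstream of the TSS, with a median of 5.8 kb between neighbouring midpoints (range 2.6 kb to 16.4 kb). The strongest of these, from 150158401 to 150159727 at 69.0 kb upstream, scored 1349 in replicate 1 (rank 290) and 903 in replicate 2 (rank 383). It was followed by the region from 150173604 to 150174607 at 53.9 kb upstream, with 963 and 797. Next came the region from 150145588 to 150146831 at 81.8 kb upstream, with 526 and 246. The other 4 of this group had scores between 155 and 249 in replicate 1 and between 111 and 187 in replicate 2. All 7 had Errfi1 as the nearest protein-coding gene, and a TSS of Gm13049 was the nearest of any gene.

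A gap of 51.7 kb without a shared region followed this group. In it, replicate 1 had a peak 22.8 kb upstream with a score of 119 and replicate 2 had one 19.8 kb upstream with a score of 91.8. Their midpoints were 3.0 kb apart, and they did not overlap. Each of these single-replicate peaks held a stretch with 1 mismatch to the ERE in the 400 bp around its midpoint. The shared region closest to the gene, from 150225555 to 150225972 at 2.3 kb upstream, was weak in both replicates, with scores of 97.1 and 93.0. Among the 11 shared Errfi1 regions, it was the only one with an ERE-like stretch of at most 1 mismatch.

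Downstream of the TSS there were 3 shared regions, all past the 3′ end of Errfi1. The region from 150245524 to 150246253, 16.7 kb downstream of the TSS, had scores of 737 and 335 and Errfi1 as the nearest gene. At 34.7 kb, the region from 150263264 to 150264549 scored 1051 and 929, the highest lower score of the 23 regions, and was nearer to a TSS of Park7, as was the weaker intronic Park7 region at 48.5 kb with 173 and 91.5. Replicate 1 alone had a further peak at 59.4 kb with a score of 151, on a Park7 TSS, and another at 54.9 kb upstream with 104. The limit of 100 kb cut the upstream group close to its edge, since a region at 98.2 kb (scores of 155 and 133) was counted and another at 107.7 kb (153 and 118) was not.

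**Figure D4:**
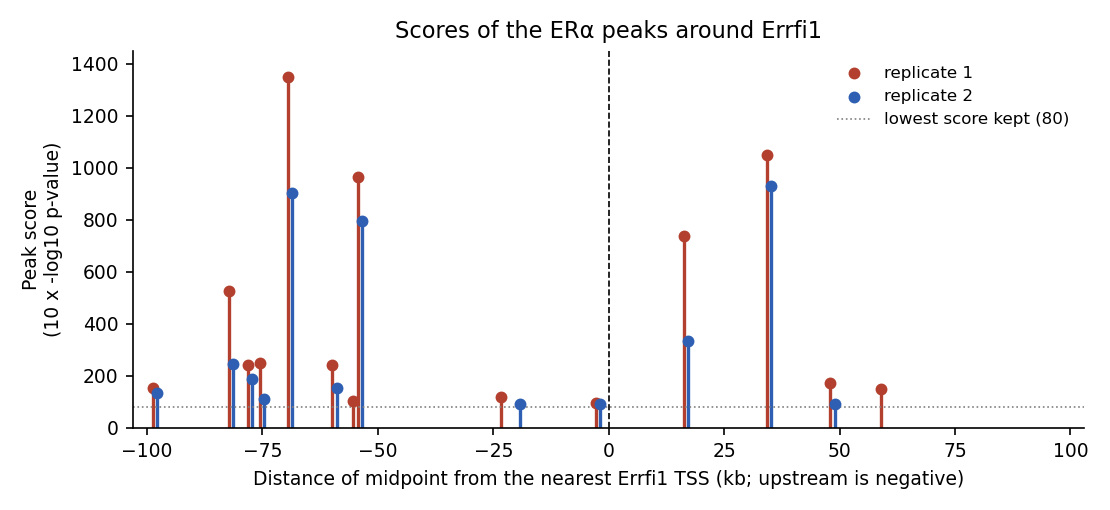
Scores of all peaks within 100 kb of Errfi1 in replicate 1 and replicate 2 (y axis, negative log10 of the p-value multiplied by 10) by distance from the nearest Errfi1 TSS in kb (x axis), with the replicates drawn slightly apart. The highest scores are at 69.0 kb and 53.9 kb upstream and at 34.7 kb downstream, and those at the promoter side, 2.3 kb upstream, are near the lowest score kept.

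The scores of the Errfi1 regions as a set were near those of all shared regions, with medians of 249 in replicate 1 and 187 in replicate 2, beside 310 and 204 for the 12 regions near the other genes. Of the 11 Errfi1 windows, 1 (9.09%, 95% interval 0.230% to 41.3%) held an ERE with at most 1 mismatch, whereas 8 of the 12 windows near the other genes did (66.7%, 34.9% to 90.1%). For all 23 the share was 39.1% (19.7% to 61.5%), and over all shared regions on assembled chromosomes it was 31.1%, beside 1.10% of windows 5 kb to each side of a shared region. The background of 31.1% lies within the interval for Errfi1 and below that for the other genes. The division by gene was made after the values were seen, so no test was made of it. With 2 mismatches allowed, 5 of the 11 Errfi1 windows and 12 of the 12 others had a match, and 67.4% of all shared regions did. Of windows 5 kb to each side, 15.5% had such a match. Searching the whole of each region instead of 400 bp left the numbers at 1 of 11 and 8 of 12.

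The 3 strongest Errfi1 regions, whose closest stretches in the window are printed above, had lower scores of 797 or more. In the series 475 shared regions reached that value, and 61.3% of these held an ERE with at most 1 mismatch, beside 0 of the 3 at Errfi1. With 3 windows, chosen with their values known, a difference from that share was not tested. The 3 Errfi1 regions were wider than the median of 559 bp, at 1327, 1286 and 1004 bp, and their summits are not given in the peak lists.

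**Figure D5:**
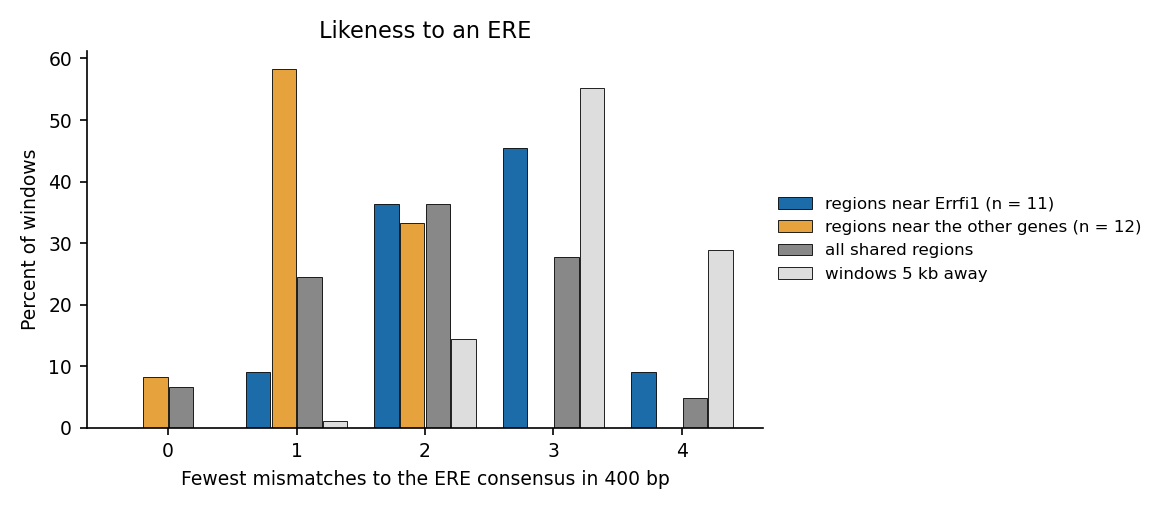
Percent of 400 bp windows (y axis) by the fewest mismatches to the ERE consensus found in the window (x axis), for the regions near Errfi1, those near the other genes, all shared regions and windows 5 kb away. Most windows near the other genes have 1 mismatch, whereas those near Errfi1 mostly have 2 or 3.

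The FOXA1 consensus, TGTTTAC or TATTTAC, was present in 4 of the 23 windows, beside 14.0% of all shared regions, and at Errfi1 it was found in the regions 69.0 kb upstream and 16.7 kb downstream. The SF1 consensus, whose last 5 bases equal an arm of the ERE, was present in 2 windows (9.35% of all shared regions), neither of them at Errfi1. The PAX2 consensus was present in 1, the Errfi1 region 81.8 kb upstream (9.16% of all shared regions). In windows 5 kb to each side of a shared region, FOXA1 was found in 10.7%, SF1 in 3.01% and PAX2 in 3.94%. None of the 5 motifs was found in 7 of the 11 Errfi1 windows and 3 of the 12 others, beside 41.0% of all shared regions. All motifs were searched on both strands, and a match or its absence describes letters in a window and not a bound factor.

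A list of 49 further genes of the pathway was examined for the same measure. At least 1 shared region lay within 100 kb of 27 of them (55.1%), beside 38.1% of protein-coding genes, with a median of 1 region and a highest number of 6. By role these were 2 of 5 other ligands, 0 of 1 receptor (Erbb4), 2 of 4 genes for the release of ligands, 14 of 22 adaptors and signal relay proteins and 9 of 17 other feedback inhibitors. None of the 49 came near the 11 regions of Errfi1. The share of 55.1% was not tested against that of all protein-coding genes. Genes with TSSs far apart had more sequence within reach, and the 3 regions near Grb7 were also those near Erbb2.

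Most regions were found for Socs3 and Stat3 with 6 each and for Lrig1, Nrg4 and Pik3r1 with 5 each. Socs3, an inhibitor of cytokine and growth factor receptors, had its strongest region 17282 bp downstream of its own TSS, with scores of 2902 and 1656. Lrig1, a transmembrane inhibitor that lowers the amount of ERBB receptors, was the nearest protein-coding gene for all 5 of its regions, of which the strongest had scores of 936 and 566. Pik3r1, a regulatory subunit of phosphoinositide 3-kinase, was the nearest gene for 4 of its 5 regions. By contrast, the strongest regions within reach of Nrg4 (2684 and 2650), Stat3 (2297 and 2292) and Grb2 (2381 and 1552) were nearest to other genes, AI118078, Stat5a and 2310067B10Rik. Rhbdf2, which takes part in the maturation of the ligand-releasing protease ADAM17, had its strongest region 3133 bp downstream of its own TSS, with scores of 2262 and 1342. In both replicates the strongest regions near Socs3 and Rhbdf2 scored higher than any of the 23 regions, whereas that of Lrig1 did not.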

How the data were processed

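Per the labels and the methods of the study, reads were mapped by the authors to mm9 using BWA. MACS was then run by them on each replicate with the input as control, at a p-value cutoff of 1e-08. The version of MACS is not given in the sources used here. Each deposited peak carries a score, which multiplies the negative log10 of its p-value by 10. The lists hold no reads, so the depth behind a score is not seen in them. The input entered only through peak calling.

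Where peaks of both replicates overlapped by at least 1 bp, the interval covered by both was the shared region. TSSs were those of all transcripts in GENCODE version 1 for mouse (NCBIM37), and all 10 genes and the 49 further genes were found by symbol. Peak ends were checked against chromosome lengths. Motifs were searched on both strands in 400 bp around midpoints, the ERE with at most 1 mismatch. The genes, lists and settings were chosen with earlier results of these data known. The 10 genes and each of their shared regions are named, and of the further genes the 5 with most regions and the 5 with the highest-scoring region. Replicates of 1 condition allow no test between groups, so counts stand beside those over all genes or regions. The steps were tested on simulated data. The software was samtools 1.23.1 and Python 3.11.15 with matplotlib 3.10.9, pysam 0.24.0, scipy 1.17.1 and numpy 2.4.6.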

Additional observations from a re-analysis of the deposited data

How the results depend on the processing

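With peaks at a score of 200 or more in both lists, there were 11 shared regions, of which 1 was nearest to one of the 10 genes, and at a score of 100 or more 3 were nearest to one of them. A limit of 50 kb gave 9 shared regions, and a limit of 25 kb gave 4, near 3 genes, with 3 of them nearest to one of the 10. The number of regions nearest to one of the genes was 14 when only protein-coding genes competed, and also 14 with TSSs of protein-coding transcripts alone. The share of windows with an ERE was 4.35% without mismatch and 73.9% with at most 2. The other 36 of 47 values of these results, with each replicate alone included, stayed within 1.5 times the count or within the interval of the share. Of 60 values for single genes, 13 changed by more. At 200 or more, Errfi1 had 5 regions, Erbb2 3, Egfr 2, Areg 1 and the other genes 0. With the limit of 50 kb, Errfi1 had 4, Egfr 2, Tgfa 2, Erbb2 1 and the other genes 0. The numbers over all protein-coding genes are given for 100 kb only. Without replicate 2, peaks of replicate 1 gave 6 sites for Erbb2 and 2 for Erbb3, and without replicate 1 there were 2 for Nrg1. The lists hold no summits or signal, and the threshold limits what was seen at Erbb3.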
